A study of Mus musculus with 24 samples.

Results

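Sorted glioma cells of late symptomatic mice were compared with those of mice that showed no symptoms, in 8 of the 24 libraries of the series. The members were chosen by the labels alone: 4 late tumours (3054A, 3054B, 3054C and 3057E) and 4 asymptomatic tumours (3228A, 3228B, 3228D and 3229B), with 1 glioma library each. All 12 gliomas of the series were raised by somatic transfer of PDGFB into the telencephalic ventricles of mouse embryos in utero, so the asymptomatic cells carry the same driver as the late ones. Glioma cells were sorted by their fluorescent protein, labelled red in 3057E and green in the other 7 tumours, and the surrounding cells by its absence. The late tumours were taken 120 (3054A), 175 (3054B), 175 (3054C) and 100 (3057E) days after transduction, and the asymptomatic ones at 33 days, or 34 days for 3229B. Early symptomatic tumours, taken at 35 to 50 days, enter the fits and are given beside some values. The labels do not name the mouse strain or sex, or the promoter that drives PDGFB. Late and early are told apart by the letters that end the labels. The codes of 3 late tumours share a prefix that no other stage has, so prefix, stage and age of the tumour cannot be told apart. Values are CPM (counts scaled to a common library size), in the order 3054A, 3054B, 3054C, 3057E for late and 3228A, 3228B, 3228D, 3229B for asymptomatic tumours.

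PDGFB is a ligand of the receptor Pdgfra, which marks oligodendrocyte precursor cells (OPC). Gliomas driven by it in rodents resemble these precursors. Solid tumours that outgrow their blood supply commonly switch on genes controlled by hypoxia-inducible factors, which raise glucose uptake, glycolysis and vessel growth. The Cdkn2a locus, which encodes the Ink4a and Arf proteins, restrains the cell cycle through Rb and p53 and is often lost in glioma.

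Library totals lay between 10384369 and 13161932 counts. OPC markers were high in all 8 libraries (summed 14800 to 24200 CPM), with Pdgfra at 3200, 3290, 2670 and 3220 CPM in late and 3730, 3130, 4960 and 4590 CPM in asymptomatic tumours. Pdgfb stood at 54.5, 60, 27.1 and 44.5 against 46.3, 57.6, 38.9 and 28.8 CPM, so the groups overlapped; the sources used here do not say if transcripts of the transferred PDGFB count towards Pdgfb. One late library stood apart. Glioma 3057E held 2760 CPM of summed microglia markers, against 156, 178 and 180 CPM in the other late gliomas and 443, 604, 295 and 894 CPM in the asymptomatic ones, and its mitosis genes summed to 538 CPM against 1570 to 6390 CPM in the other 7. The counts are therefore given with 4 late tumours and with the 3 left without 3057E. Genes given a fold change for 3 late tumours alone did not pass with 4. Sex was not balanced: Xist was high in 1 asymptomatic tumour (3228A) and in 2 late ones (3054A, 3054B). The early symptomatic tumours 3108D and 3109D had Xist on opposite sides in their glioma and surrounding libraries; they enter the fits only through the shared spread.

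With 4 late tumours, 26 of 16494 genes passed the test (edgeR's quasi-likelihood test, Benjamini-Hochberg adjusted p under 0.05), which is 0.158% of the genes tested. Of these 18 were higher (0.109%) and 8 lower (0.0485%) in late glioma. Without 3057E, 2487 of 16937 genes passed (14.7%), 1217 of them higher (7.19%) and 1270 lower (7.50%), and all 26 were among them. In glioma 3057E the level lay nearer the asymptomatic mean than the mean of the 3 other late tumours for 88.6% of the higher and 87.2% of the lower genes. 3057E was not in the fit that chose those genes. It was left out with earlier results of these data known, so these shares are not an independent check. The count with 4 late tumours was 0 with only the late and asymptomatic libraries in the fit, with Xist as a covariate, without early tumours 3108D and 3109D, and without any 1 of 3054C, 3228A, 3228D or 3229B. Other tools called more, 578 genes with DESeq2 and 2989 with limma voom. The count with 3 late tumours fell to 36 once the mean of the microglia markers was a covariate. Those markers summed to 156 to 180 CPM in the 3 late and 295 to 894 CPM in the asymptomatic gliomas, without overlap. The covariate is therefore tied to stage, and a lost call here or below does not show what part the markers had. List medians under it grew or shrank in size: hypoxia response went from 1.85 to 3.01 and p53 targets from -0.65 to -0.17.

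Among the genes that rose with all 4 late tumours, the cell cycle inhibitor locus Cdkn2a (ENSMUSG00000044303, chromosome 4, 89274471 to 89294653, minus strand, GRCm38) stood at 84.1, 133, 140 and 17.3 CPM in late glioma and at 5.99, 14.0, 5.93 and 7.84 CPM in asymptomatic glioma. The groups did not overlap, but 3057E lay just above the highest asymptomatic tumour. Its log2 fold change was 3.45 ± 0.54 (SE, adjusted p = 0.032) with 4 and 3.78 ± 0.32 (adjusted p = 5.95e-05) with 3 late tumours. The neighbouring inhibitor Cdkn2b did not pass (0.83 ± 0.28 with 4 late tumours, adjusted p = 0.20). Of the 16 tested genes of cell cycle inhibition and senescence, 1 rose with 4 late tumours, against a background share of 0.109%. With 3, Cdkn2a and the tumour suppressor Trp53 rose (0.80 ± 0.19, adjusted p = 0.015) and none fell, beside background shares of 7.19% and 7.50%. Trp53 stood at 77.2, 86.7, 100 and 45.5 CPM in late and 53.1, 57.7, 40.0 and 46.7 CPM in asymptomatic glioma, so 3057E lay among the asymptomatic values.

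Calls with 4 late tumours also fell in the list of retinoic acid signalling. Rarb, a nuclear receptor for retinoic acid and itself a known target of the pathway (chromosome 14, 16430839 to 16819156), stood at 35.5, 47.5, 24.1 and 19.8 against 3.99, 6.98, 5.45 and 2.90 CPM. Each late library lay above every asymptomatic one. Rarb rose by 2.7 ± 0.36 (adjusted p = 0.019) on the log2 scale with 4 late tumours. Of the 12 tested genes of the list, 2 rose and 0 fell with 4 late tumours, against background shares of 0.109% and 0.0485%. With 3, 4 rose and 1 fell, beside background shares of 7.19% and 7.50%. Microglia markers as a covariate left 0 called in either direction. The gene that fell was Aldh1a1, an enzyme that makes retinoic acid (-2.10 ± 0.33, adjusted p = 0.0018), at 8.42, 5.94, 9.35 and 133 CPM in late and 21.8 to 51.3 CPM in asymptomatic glioma. With 3057E, Aldh1a1 did not pass (0.26 ± 0.85, adjusted p = 0.92).

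Axl, a receptor kinase that binds Gas6 and is also made by myeloid cells (chromosome 7, 25757273 to 25788705), stood at 140, 280, 164 and 142 CPM in late and 27.1, 42.7, 28.9 and 42.7 CPM in asymptomatic glioma. It rose by 2.35 ± 0.29 (adjusted p = 0.019) and 2.43 ± 0.30 (adjusted p = 0.00054) with 4 and 3 late tumours. The level of Axl in surrounding cells was 171 to 815 CPM in late and 106 to 215 CPM in asymptomatic tumours, above glioma on average, and the part of carried-over RNA was not tested. In 3054A, 3054B and 3054C, where microglia markers summed to at most 180 CPM, Axl lay at 140 to 280 CPM, against 142 CPM in 3057E. These markers do not cover other surrounding cells, and the source of the Axl transcripts was not tested. Mertk, a relative of Axl, went the other way among the 3 (-2.80 ± 0.55, adjusted p = 0.0054), at 4, 1.44, 1.13 and 66.5 CPM against 9.80 to 26.0 CPM. The ligand Pros1 rose with 3 late tumours (1.11 ± 0.32, adjusted p = 0.034) and did not pass with 4 (0.91 ± 0.35, adjusted p = 0.25).

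The other genes higher with 4 late tumours had varied roles. Skap2, an adaptor of integrin signalling, stood at 66.8, 113, 86.5 and 43.8 against 21.1, 13.8, 7.82 and 14.9 CPM (2.41 ± 0.36). The forkhead factor Foxf1 stood at 21, 19.2, 11.5 and 4.61 against 1.55, 0.830, 1.26 and 2.32 CPM (3.20 ± 0.56). The matrix crosslinker Lox stood at 7.57, 17.1, 16.4 and 7.58 against 1.48, 2.99, 2.69 and 2.76 CPM (2.28 ± 0.37). In none of these did the 2 groups overlap. Tmem176a and Tmem176b, neighbouring membrane protein genes, rose by 2.27 ± 0.33 and 1.41 ± 0.21, with Tmem176a at 427, 811, 457 and 348 against 78.8 to 131 CPM. The early symptomatic tumours lay at 172 to 415 CPM for Tmem176a, between the other stages or within the late range. Gpi1, a glycolytic isomerase, rose by 1.96 ± 0.31; its near-identical copy Gpi-ps was called too, and expected counts split reads between such copies by estimate. Ifit1, a gene induced by interferon, rose by 2.11 ± 0.35, and was highest in 3057E (18.0, 21.6, 21.3 and 37.9 against 3.4 to 7.91 CPM). Smaller changes were found in the early response gene Ier3 (1.61 ± 0.24), the protocadherin Pcdhb3 (1.44 ± 0.25) and the junction protein Jam3 (0.80 ± 0.14, the only called gene under 2-fold). Cmbl (2.40 ± 0.37), Fam89a (2.36 ± 0.42) and Cnpy1 were called at low levels. Cnpy1 stood at 4.25, 8.54, 2.11 and 1.89 CPM in late, at 0 to 0.166 CPM in asymptomatic and at 0 in the early symptomatic tumours. It rests on few reads and passed the count filter only through the late tumours. Its levels are therefore a description and no fold change is given, though it stays in the counts.

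**Figure D1:**
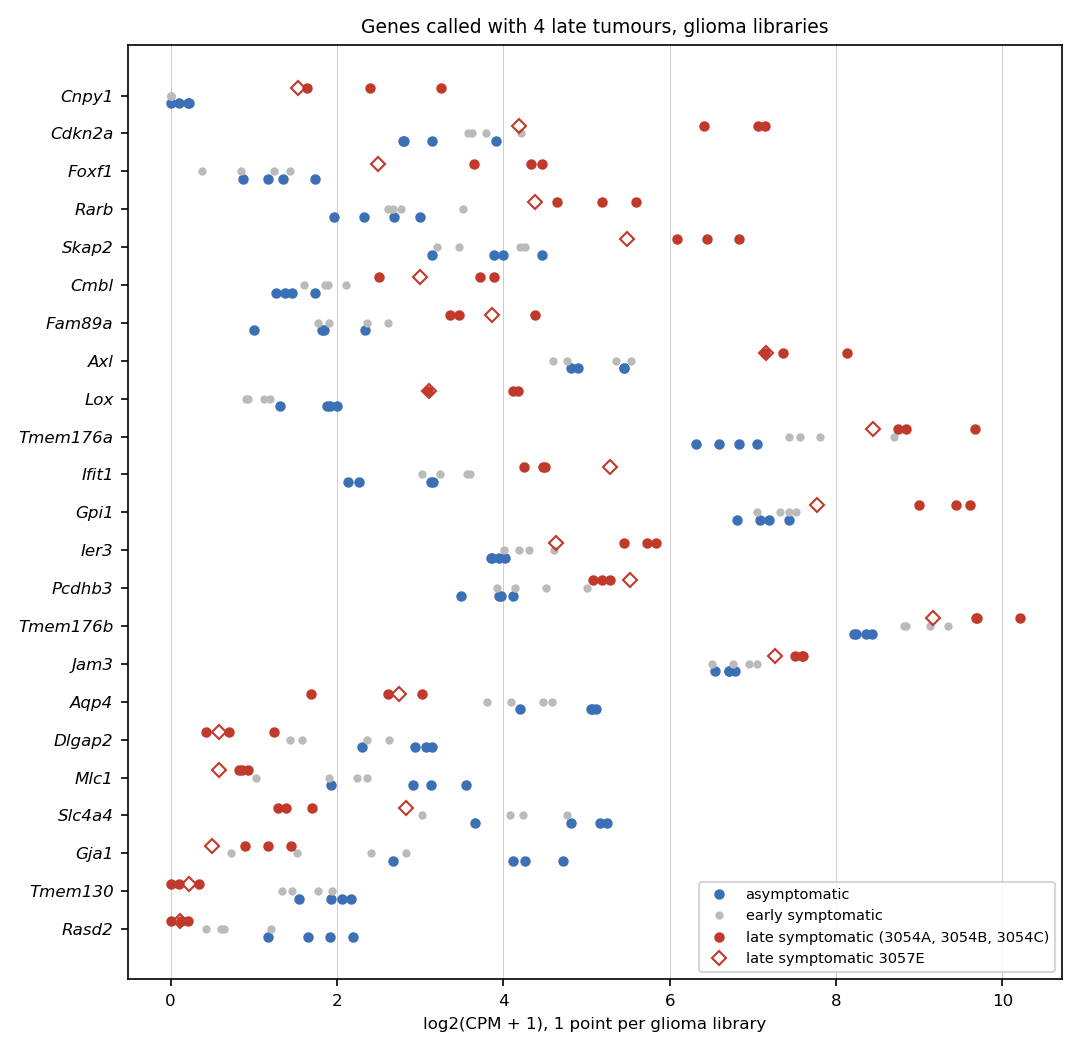
Levels of the named genes that passed the test with 4 late tumours, as log2(CPM + 1) in each glioma library; points are libraries and colours are stages. In each gene the late libraries lie on one side of the asymptomatic ones, with 3057E (open diamond) at the asymptomatic side for Cdkn2a, at 17.3 CPM.

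Of the 8 genes that fell with 4 late tumours, 4 are markers of astrocytes. The gap junction protein Gja1 (chromosome 10, 56377330 to 56402513) stood at 0.851, 1.26, 1.73 and 0.412 CPM in late and 16.3, 5.40, 18.2 and 25.3 CPM in asymptomatic glioma (-3.94 ± 0.69, adjusted p = 0.048). The bicarbonate transporter Slc4a4 (chromosome 5, 88886818 to 89239653) stood at 1.62, 1.44, 2.26 and 6.10 against 27.2, 11.6, 37.1 and 34.8 CPM (-3.27 ± 0.56, adjusted p = 0.047). The water channel Aqp4 fell by 2.53 ± 0.34 and Mlc1 by 3.22 ± 0.51. All 4 genes were higher in surrounding than in glioma cells, where Gja1 lay at 23.5 to 49.3 CPM in late and 44.1 to 211 CPM in asymptomatic tumours; fewer astrocytes in the sort and less RNA per glioma cell cannot be told apart in bulk RNA. Of the 18 tested astrocyte markers, 0 rose and 4 fell with 4 late tumours (median log2 fold change -0.88), and 0 rose and 7 fell with 3 (median -0.92), against medians of 0.04 and -0.01 over all genes. The background shares called lower were 0.0485% with 4 and 7.50% with 3 late tumours. With 3, the number that fell was 5 without any 1 of 3054A, 3054B, 3054C, 3228D or 3229B. It was 2 of 11 without genes higher in surrounding cells, and 0 with microglia markers as a covariate. Gfap, the intermediate filament of astrocytes, did not pass with 4 (-1.25 ± 0.68, adjusted p = 0.42). The summed level of the list overlapped between the groups, at 2240 to 3770 CPM in late and 3010 to 3760 CPM in asymptomatic glioma. Other genes that fell were the synaptic scaffold gene Dlgap2 (-3.17 ± 0.52), Tmem130 (-4.40 ± 0.62) and the small GTPase Rasd2 (-4.73 ± 0.71). Rasd2 lay at 0 to 0.151 CPM in late and 1.25 to 3.56 CPM in asymptomatic glioma. Its late levels rest on few reads or none, so the size of its fold is uncertain.

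Hypoxia response genes rose together in 3 of the 4 late tumours. With 3 late tumours, 20 of the 22 tested genes of the list rose and 0 fell, with a median log2 fold change of 1.85. Background shares were 7.19% higher and 7.50% lower. The members of the list that did not pass were Ndrg1 and Bnip3l, named after their values were seen. With 4 late tumours 1 rose, Lox, with a median of 1.46, against a background share of 0.109%. The summed level was 1800, 2010, 2260 and 644 CPM in late and 653, 712, 644 and 831 CPM in asymptomatic glioma, so 3057E lay at the level of the lowest asymptomatic tumour. The early symptomatic tumours had 627 to 846 CPM. Their microglia markers summed to 185 to 305 CPM, above the 3 late tumours and, but for 1 overlap, below the asymptomatic ones. Whether the marker level bears on the hypoxia level was not tested.

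Upstream sequences of 3 members are shown because a short core, bound by hypoxia-inducible factors, can be looked for in genes that moved together. They are the 250 bases before the start in RefSeq promoters (GRCm38.p6), 5′ to 3′ on the gene's strand, with matches to ACGTG or GCGTG on either strand in capitals; overlapping matches form a longer run, and CACGTG matches on both strands.
Bnip3 (chr7:138909507-138909756, minus strand, 5 matches): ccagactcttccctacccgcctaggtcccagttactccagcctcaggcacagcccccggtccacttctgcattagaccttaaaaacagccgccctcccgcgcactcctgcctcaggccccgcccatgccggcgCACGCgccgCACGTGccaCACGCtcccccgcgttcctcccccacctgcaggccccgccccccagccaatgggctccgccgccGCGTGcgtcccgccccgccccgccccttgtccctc
Ankrd37 (chr8:45999851-46000100, minus strand, 4 matches): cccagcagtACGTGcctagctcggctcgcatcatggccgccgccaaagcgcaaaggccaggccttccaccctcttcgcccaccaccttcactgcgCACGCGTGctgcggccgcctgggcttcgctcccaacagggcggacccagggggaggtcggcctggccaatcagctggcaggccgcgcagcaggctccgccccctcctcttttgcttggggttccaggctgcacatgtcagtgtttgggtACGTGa
Higd1a (chr9:121857797-121858046, minus strand, 2 matches): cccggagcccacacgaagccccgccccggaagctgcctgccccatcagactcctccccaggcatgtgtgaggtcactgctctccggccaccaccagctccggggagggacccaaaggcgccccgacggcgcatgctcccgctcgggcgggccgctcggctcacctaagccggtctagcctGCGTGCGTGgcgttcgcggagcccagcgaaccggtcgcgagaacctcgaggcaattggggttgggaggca

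In windows of 300 bases (250 before to 50 after the start), 17 of the 18 hypoxia list genes found in the RefSeq table held a match in at least 1 promoter, 94.4%, against 46.7% of 27025 genes. Over promoters the shares were 18 of 24 (75%) and 43.8% of 32851. A match is not a bound site, and base composition differs between promoters. The list was made of known hypoxia response genes, so its share describes the list and not these tumours. Bnip3, a mitochondrial protein of mitophagy, stood at 123, 171, 263 and 23.1 CPM in late and 23.1, 30.5, 19 and 38.2 CPM in asymptomatic glioma (2.71 ± 0.27, adjusted p = 0.00019 with 3; 2.37 ± 0.52, adjusted p = 0.086 with 4). Ankrd37 stood at 9.78, 9.53, 10.3 and 0.577 against 1.03, 1.33, 0.553 and 2.03 CPM (2.95 ± 0.38 with 3), and Higd1a, a mitochondrial gene induced in hypoxia, at 63.5, 76.5, 75.8 and 23.1 against 21.6 to 30.4 CPM (1.39 ± 0.17 with 3). For all 3 genes, 3 late tumours lay above the asymptomatic range and 3057E lay within it. In surrounding cells Bnip3 was at 17.0 to 255 CPM in late and 24.1 to 49.3 CPM in asymptomatic tumours. Its stage effect did not pass the test of a difference between glioma and surrounding cells (0.19, adjusted p = 0.88).

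Glycolysis followed the same tumours. Of 20 tested genes 16 rose and 0 fell with 3 late tumours (median 1.46), and 1 rose with 4 (median 1.26). The background shares called higher were 7.19% and 0.109%. The list shares 3 genes with the hypoxia list. Gpi1 led, at 512, 782, 696 and 218 against 145, 172, 111 and 135 CPM. The enzyme Pgk1 stood at 454, 456, 673 and 153 against 130, 168, 103 and 153 CPM (1.90 ± 0.21 with 3, adjusted p = 0.00031; 1.63 ± 0.34 with 4, adjusted p = 0.077). Gapdh stood at 344, 491, 425 and 165 against 165, 166, 131 and 162 CPM (1.40 ± 0.15 with 3). For Pgk1 and Gapdh, 3057E lay within or at the edge of the asymptomatic range. With microglia markers as a covariate 6 hypoxia and 4 glycolysis genes were still called among the 36 genes, and leaving out each late or asymptomatic tumour in turn gave 17 to 20 and 14 to 16 called members.

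Ribosomal protein genes showed a smaller and wider change. With 3 late tumours 37 of 39 tested cytoplasmic members rose and 0 fell (median 0.83), beside background shares of 7.19% and 7.50%. With 4 none was called (median 0.61). Rps16 stood at 316, 311, 397 and 119 against 154, 159, 117 and 151 CPM (1.20 ± 0.16 with 3), and Rpl28 at 368, 385, 375 and 143 against 187, 200, 164 and 173 CPM (1.02 ± 0.13). Each was high in the 3 tumours, and in 3057E at the low end or below the asymptomatic range. Nuclear genes of oxidative phosphorylation rose in 10 of 27 and fell in 0 with 3 late tumours (median 0.50), beside the same background shares. None of these was called with 4 (median 0.39). Among the genes that rose with 3 were the complex I subunit Ndufa2 (0.87 ± 0.17) and the complex IV subunit Cox7a2 (0.92 ± 0.16). With microglia markers as a covariate, 0 genes of both lists were called; the part of the marker level in these counts was not tested further. Leaving out each tumour in turn gave 30 to 36 ribosomal and 5 to 10 oxidative phosphorylation genes.

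**Figure D2:**
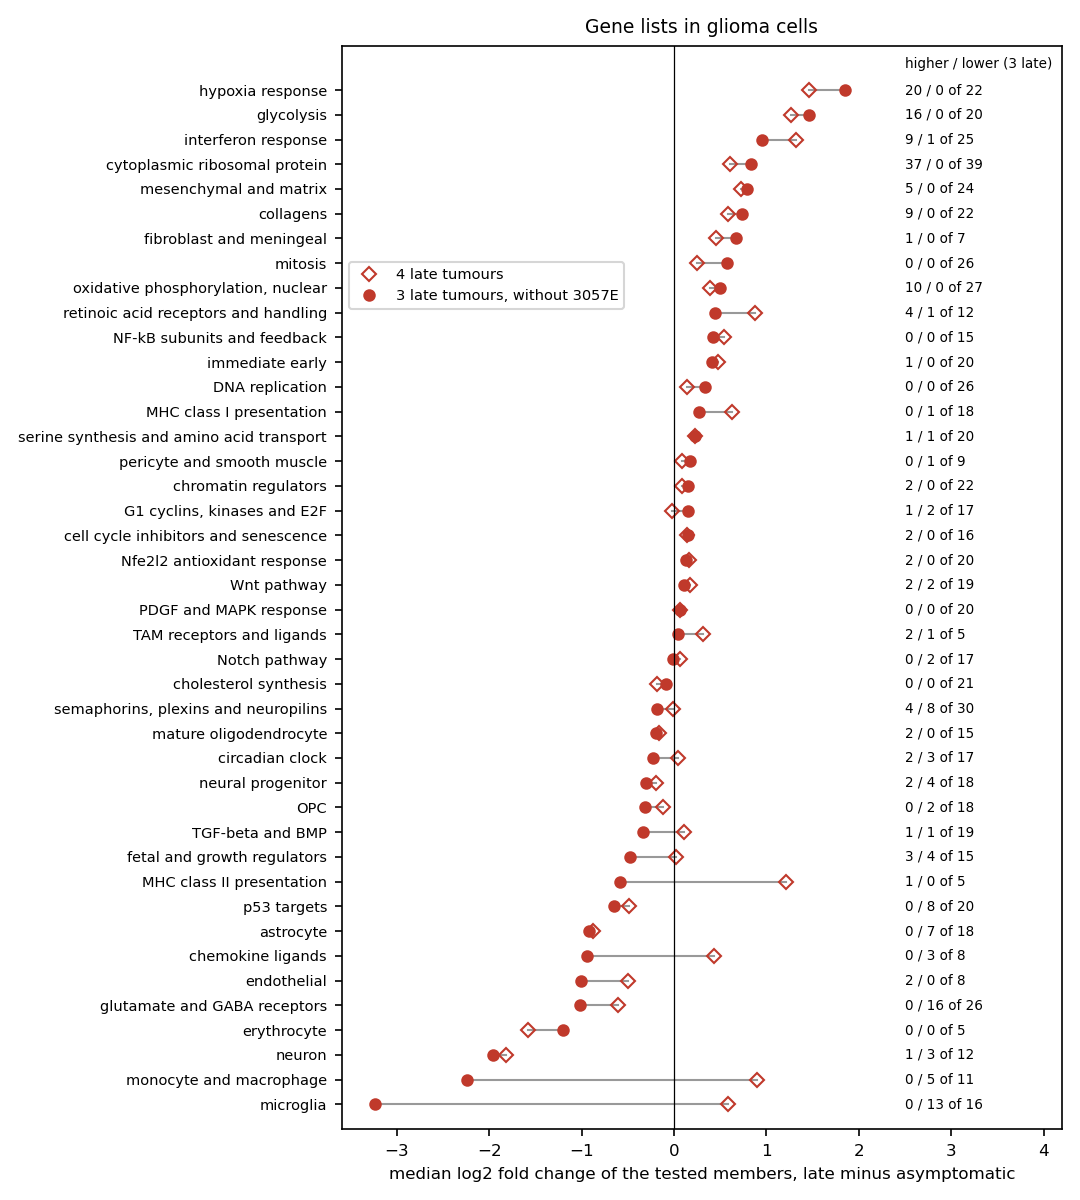
Median log2 fold change of the tested members of each list with at least 3 tested genes, late minus asymptomatic glioma, with 4 late tumours (open diamonds) and without 3057E (filled circles); the right side gives members called higher and lower with 3. Microglia moved from 0.58 to -3.24, and hypoxia response from 1.46 to 1.85.

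Microglia markers differed in sign between the fits. With 4 late tumours 0 of 16 passed (median 0.58). With 3, 0 rose and 13 fell (median -3.24), beside background shares of 7.19% and 7.50%. Csf1r, the receptor that microglia need to survive, stood at 3.06, 5.13, 5.73 and 260 CPM in late and 43.2, 53.6, 27.8 and 85.7 CPM in asymptomatic glioma, against 366 to 2840 CPM in late and 1540 to 2200 CPM in asymptomatic surrounding cells. Its log2 fold change was 0.42 ± 1.13 with 4 (adjusted p = 0.90) and -3.53 ± 0.37 with 3 (adjusted p = 0.00025). Fcrls, Mpeg1, Clec7a and Ly86, other genes of microglia and macrophages among the largest falls, had the same pattern, with Mpeg1 at 5.62, 4.59, 10.8 and 553 against 57.1, 104, 26.9 and 143 CPM. Of the genes called lower with 3, 333 were also called higher in surrounding than in glioma cells, as were 221 of the higher genes. These are 26.2% and 18.2%, against 18.9% (3194) of the 16937 genes tested. Without those genes 1872 were called. Pan-leukocyte Ptprc lay at 0.425, 0.630, 1.66 and 69.1 against 4.42 to 12.4 CPM, and T and NK cell markers summed to 1.08 to 5.03 CPM over the 8 libraries.

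Neurotransmitter receptor genes were lower in the same 3 tumours. Of 26 tested genes for glutamate and GABA receptors, 0 rose and 16 fell with 3 late tumours (median -1.02). Background shares were 7.19% and 7.50%, and none of the list was called with 4 (median -0.61). The number that fell was 9 of 27 without 3054B, 10 without 3054C, 11 without 3228D and 0 with microglia markers as a covariate. The AMPA receptor gene Gria1 stood at 2.30, 4.23, 6.41 and 37.6 against 28.5, 22.3, 35.2 and 32.4 CPM (-2.81 ± 0.31 with 3, adjusted p = 0.00027; -1.21 ± 0.67 with 4, adjusted p = 0.43). The NMDA receptor gene Grin1 stood at 14.5, 18.9, 24.4 and 56.5 against 88.2, 54.1, 91.7 and 58.6 CPM (-1.96 ± 0.26 with 3). Gria1 in 3057E lay above all asymptomatic tumours, while Grin1 lay within their range. The neuron list had 3 members lower and Tubb3 higher of 12 with 3 late tumours, beside the same background shares. None of the list was called with 4, and with 3, 1 fell without 3054A or 3054C. Named genes with large falls here included the sialyltransferase St8sia3 (8.34, 5.04, 6.64 and 99.1 against 86.6, 78.1, 117 and 84.3 CPM; -3.81 ± 0.26), Fstl5 (-3.48 ± 0.36), the scaffold gene Sntg1 (-3.73 ± 0.40), the GABA transporter Slc6a11 (-4.22 ± 0.45), the vesicle protein gene Rph3a (-4.19 ± 0.75) and the orphan receptor gene Gpr158 (-3.56 ± 0.53). These folds are with 3 late tumours. The 6 genes were named by a rule that asked for no overlap between the 3 and the asymptomatic tumours. That separation was therefore set by the choice of genes. None of the 6 passed with 4 (adjusted p from 0.13 for Slc6a11 to 0.59 for Gpr158).

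Targets of p53 fell in part. Of 20 tested, 0 rose and 8 fell with 3 late tumours (median -0.65), beside background shares of 7.19% and 7.50%. None of the list was called with 4 (median -0.49). The number that fell was 4 without 3054B, 5 without 3054A or 3228B and 0 with microglia markers as a covariate. The RNA-binding gene Zmat3 stood at 104, 91.6, 101 and 145 against 193, 243, 183 and 224 CPM, with no overlap in either fit (-1.12 ± 0.14 with 3; -0.93 ± 0.17 with 4, adjusted p = 0.055). The death receptor gene Eda2r stood at 2.89, 11.8, 5.28 and 38.2 against 65.6, 86.2, 39.6 and 74.8 CPM (-3.36 ± 0.44 with 3), and Trp53inp1 at 41.4, 59.4, 60.8 and 128 against 103 to 164 CPM (-1.32 ± 0.19). Cell division genes gave no calls in either fit: 0 of 26 mitosis and 0 of 26 replication genes. With 3 late tumours all 26 of each list had folds above 0 (medians 0.575 and 0.338). With 4, 21 mitosis and 20 replication genes did (medians 0.25 and 0.14). Summed mitosis levels overlapped, at 3170 to 6390 CPM in the 3 late and 1570 to 3460 CPM in asymptomatic gliomas. With only the late and asymptomatic libraries and without 3057E, 3 replication genes were called higher. Mki67 stood at 1770, 872, 662 and 85.5 against 897, 755, 325 and 526 CPM. Myc rose with 3 late tumours (0.99 ± 0.28, adjusted p = 0.030) and its relative Mycn fell (-1.35 ± 0.28, adjusted p = 0.0069). With 4, neither passed (Myc 0.73 ± 0.36, adjusted p = 0.36; Mycn -0.90 ± 0.34, adjusted p = 0.24).

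Collagens and other matrix genes rose in part. Of 22 tested collagens 9 rose and 0 fell with 3 late tumours (median 0.74), beside background shares of 7.19% and 7.50%. None of the list was called with 4 (median 0.58). The number that rose was 6 without 3054B and 0 with microglia markers as a covariate. Col18a1, source of endostatin, stood at 341, 636, 342 and 10.9 against 17.9, 62.5, 0.869 and 19.5 CPM (4.09 ± 0.87), and Col20a1 at 28.4, 356, 100 and 29.5 against 12.1 to 17.0 CPM (3.51 ± 0.77). Collagen Col6a1 (4.25 ± 0.62) and the lectin Lgals1 (3.36 ± 0.51) rose too, but are higher in surrounding cells. Col18a1 and Col20a1 were named by a rule that asked for no overlap between the 3 late and the asymptomatic tumours. In 3057E, which the rule left out, Col18a1 lay within the asymptomatic range and Col20a1 above it. None of these 4 genes passed with 4 late tumours (adjusted p from 0.12 for Lgals1 to 0.17 for Col18a1). The largest rises with 3 late tumours also took in Ulbp1, a stress ligand of the NKG2D receptor (58.4, 45.1, 32.2 and 2.97 against 2.45 to 4.14 CPM; 3.86 ± 0.32, adjusted p = 5.95e-05), Moxd1 (584, 959, 539 and 9.89 against 16.8 to 236 CPM; 2.85 ± 0.68), Clca3a1 (4.57 ± 1.01), Itih5 (3.28 ± 0.49) and the vesicle protein Syt4 (2.85 ± 0.54). With 4 these 5 did not pass, with the lowest adjusted p at Ulbp1 (3.48 ± 0.66, adjusted p = 0.062) and the highest at Moxd1 (2.45 ± 0.99, adjusted p = 0.28).

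Growth and position genes added single members. Of 15 tested fetal and growth regulators 3 rose and 4 fell with 3 late tumours, against background shares of 7.19% and 7.50%, and none was called with 4 (median 0.02). The number that fell was 0 without 3054C or 3228D, 1 without any 1 of 3054A, 3054B, 3228A or 3229B, and 0 with microglia markers as a covariate. Igf2bp2, an RNA-binding protein of growing tissue, stood at 13.2, 26.2, 9.35 and 0.659 against 0.237 to 0.830 CPM (4.85 ± 0.55 with 3, adjusted p = 0.00036; 4.46 ± 0.89 with 4, adjusted p = 0.068). Hmga1 (1.61 ± 0.36) and Dlk1 (2.39 ± 0.60) rose with 3 late tumours and did not pass with 4 (1.32 ± 0.47, adjusted p = 0.22, and 2.0 ± 0.86, adjusted p = 0.30).

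Of 17 Hox genes, which pattern the trunk and hindbrain, 5 passed the count filter with 3 late tumours and 2 with 4. Hoxa5 stood at 8.93, 18.0, 10.9 and 0.494 against 0.739, 0, 0 and 0 CPM, and Hoxa4 at 8.51, 11.2, 10.2 and 0.494 against 0.739, 0, 0 and 0 CPM. Both were at 0 in 3 asymptomatic and all 4 early symptomatic tumours. They entered the test only through the 3 late tumours that hold them, so their levels are a description and no fold change or count of calls is given.

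Among 25 interferon genes 9 rose and 1 fell with 3 late tumours, beside background shares of 7.19% and 7.50%. With 4, 1 rose (Ifit1, median of the list 1.32), against a background share of 0.109%. With 3, Oasl2 (1.85 ± 0.45) and Xaf1 (2.23 ± 0.54) rose, and in late surrounding cells they stood at 71.1 to 158 and 16.8 to 34.1 CPM. With 4 neither passed (2.34 ± 0.50 and 2.52 ± 0.55, both adjusted p = 0.083). The number that rose was 1 without 3054B, 5 without 3054C or 3228D, 6 without 3229B and 0 with microglia markers as a covariate.

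Of 17 circadian clock genes 2 rose and 3 fell with 3 late tumours, against background shares of 7.19% and 7.50%, and none was called with 4 (median 0.04). The number that fell was 0 without 3054B or 3228D and 1 without 3054C or 3229B; microglia markers as a covariate left none in either direction. The 2 that rose were Npas2 (3.22 ± 0.41 with 3; 2.87 ± 0.61 with 4, adjusted p = 0.083) and Bhlhe40 (1.40 ± 0.25 with 3; 1.23 ± 0.28 with 4, adjusted p = 0.084). Of 30 semaphorins, plexins and neuropilins, guidance molecules of growing axons, 4 rose and 8 fell with 3 late tumours, beside the same background shares, and none was called with 4 (median -0.01). The number that fell was 3 without 3228D, 4 without 3054B or 3054C and 5 without 3054A, and with microglia markers as a covariate none was called. The ligand Sema3e rose (2.29 ± 0.38 with 3; 2.09 ± 0.40 with 4, adjusted p = 0.062) and the receptor Nrp2 fell (-2.13 ± 0.29 with 3; -0.78 ± 0.60 with 4, adjusted p = 0.57).

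Of 18 tested OPC markers 0 rose and 2 fell with 3 late tumours, against a background share of 7.50% lower, and none was called with 4 (median -0.12). The 2 were Ptprz1 (-0.70 ± 0.17) and Cspg5 (-0.73 ± 0.18). The number that fell was 4 with DESeq2, with only the late and asymptomatic libraries or without 3228B, 1 without 3054A or 3054B, and 0 without 3054C or 3228D or with microglia markers as a covariate. Olig2, the lineage factor, stood at 486, 427, 485 and 507 against 532, 443, 550 and 557 CPM (-0.13 ± 0.16 with 4). Sox10 stood at 502, 771, 704 and 451 against 522, 421, 494 and 366 CPM (0.42 ± 0.22 with 4, adjusted p = 0.40). Of 18 neural progenitor genes, 2 rose with 3 late tumours, Sox4 (0.94 ± 0.20) and Id3 (2.28 ± 0.36), and 4 fell, among them Dcx (-1.24 ± 0.24), beside background shares of 7.19% and 7.50%. None of the list was called with 4 (median -0.20). With 3, the number that fell was 1 without 3054C or 3228D, 2 without any 1 of 3054A, 3054B, 3228A or 3229B, and 0 with microglia markers as a covariate. No gene of the PDGF and MAPK response list was called in either fit (20 tested with 3 late tumours, median 0.06). Mbp of myelin was 35.4 to 190 CPM in late and 199 to 1310 CPM in asymptomatic glioma (-2.71 ± 0.85 with 3, adjusted p = 0.057).

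**Figure D3:**
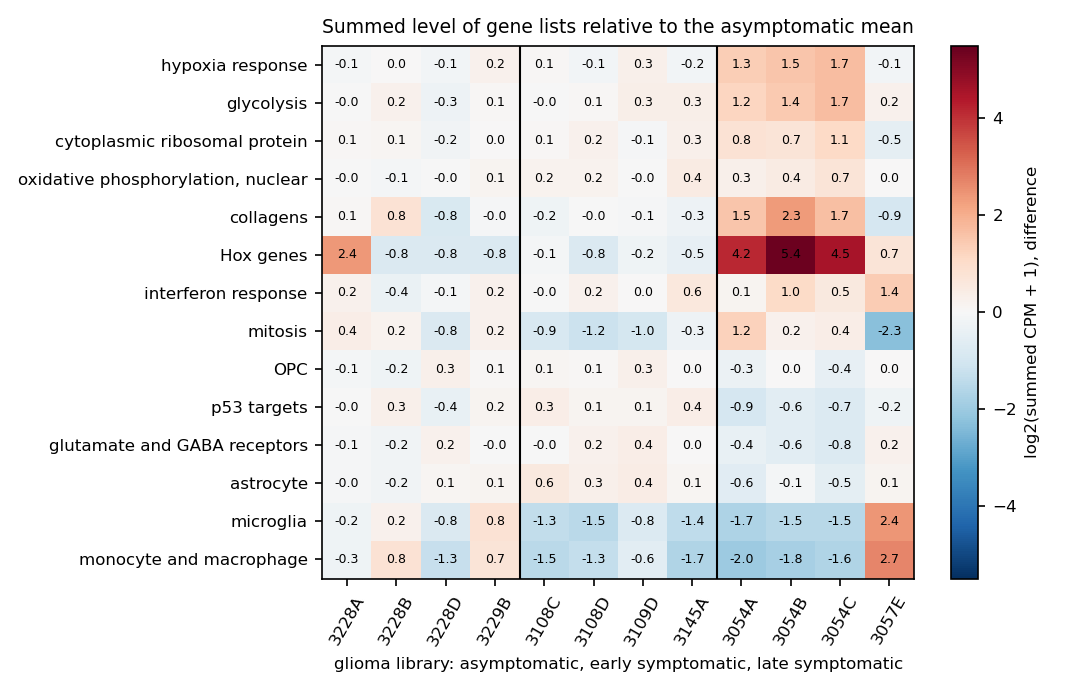
Log2(summed CPM + 1) of 14 gene lists in each glioma library minus the mean of the 4 asymptomatic libraries; columns are libraries by stage. Glioma 3057E differs from the other late tumours most in microglia, monocyte, Hox, mitosis and collagen levels.

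The stage effect in glioma cells was set against that in surrounding cells, as late minus asymptomatic in glioma minus the same in surrounding cells. With 4 late tumours 0 of 18810 genes passed (0%); 1585 had an unadjusted p under 0.05, the smallest adjusted p was 0.312 and DESeq2 called 18. Without 3057E 1435 of 19254 passed (7.45%), and 2800 when tumour code was a block that pairs both libraries of a tumour. The difference was above 0 for Cdkn2a (1.90, adjusted p = 0.046), Tmem176b (1.52, adjusted p = 0.0012), Sox4 (1.76, adjusted p = 0.0030) and Igf2bp2 (3.93, adjusted p = 0.0024). It was below 0 for Csf1r (-4.07, adjusted p = 0.00026) and Mpeg1 (-4.98, adjusted p = 0.00047). Such a difference does not by itself show which way the surrounding cells moved. Of the genes called with 3 late tumours 425 also passed this test, which leaves most without a shown difference. Of 93 named genes, 23 passed this test without and 36 with that block, and 23 passed both. The surrounding cells had an OPC marker sum of 908 to 15600 CPM in late and 6080 to 17600 CPM in asymptomatic tumours, so they held transcripts of the glioma lineage too.

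Calls with 3 late tumours differed by the length of the gene from start to end. Of 6066 tested genes under 10 kb, 8.98% were higher and 4.45% lower. Of 509 genes over 300 kb, 3.14% were higher and 26.9% lower, with a median log2 fold change of -0.40 (-0.26 with 4 late tumours). Among protein-coding genes the median span was 25.9 kb for those tested, 15.4 kb for the higher and 44.7 kb for the lower ones. Genes over 300 kb took 3.28% to 4.27% of the counts in 3054A, 3054B and 3054C, 5.1% in 3057E and 4.67% to 5.85% in the asymptomatic libraries, so the groups did not overlap without 3057E. Many ribosomal protein genes are short and many receptor genes long, so these shares describe partly the same genes as the lists above.

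**Figure D4:**
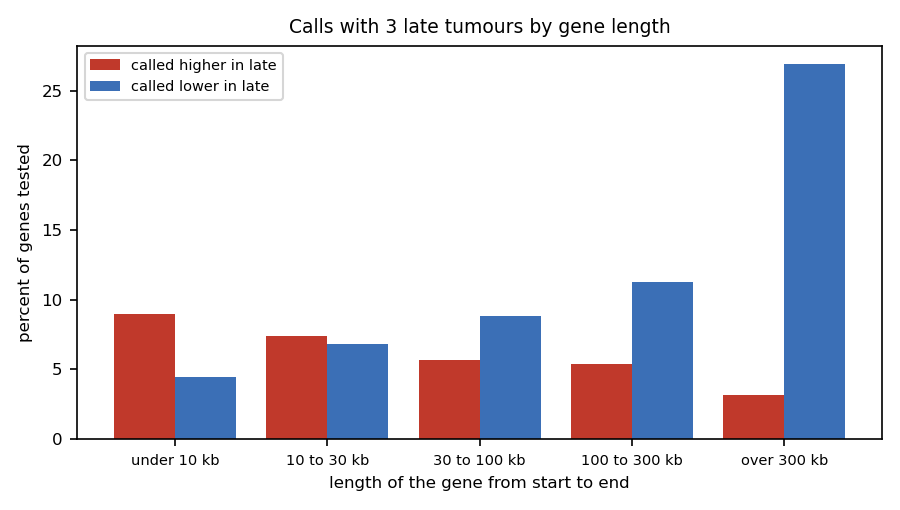
Percent of tested genes called higher (red) and lower (blue) with 3 late tumours, by length of the gene from start to end in kb. The share called lower rises from 4.45% to 26.9% and the share called higher falls from 8.98% to 3.14%.

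Genes of 1 chromosome were shifted together in 1 late tumour. For each autosome, the median difference of log2(CPM + 1) from the asymptomatic mean was centred within a library. Over the 625 genes of chromosome 1 it was 0.46 in glioma 3054B, with 79.2% of the genes above the asymptomatic mean. It was 0.08 in the surrounding cells of 3054B, and 0, 0.11 and 0.07 in glioma 3054A, 3054C and 3057E. On autosomes 2 to 19 the 4 late gliomas lay between -0.09 and 0.06. The shift was a description of 1 tumour, without a replicate; without 3054B the comparison with 3 late tumours called 1410 genes.

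**Figure D5:**
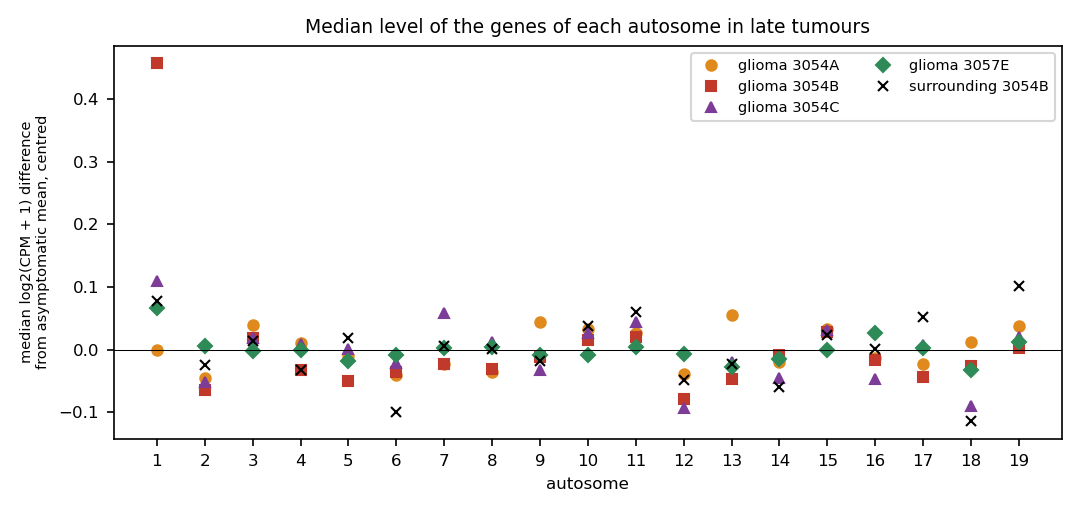
Median over the genes of each autosome of log2(CPM + 1) minus the asymptomatic glioma mean, centred within each library, for the 4 late gliomas and the surrounding cells of 3054B. Chromosome 1 in glioma 3054B stands at 0.46, and the other glioma values lie between -0.09 and 0.11.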

How the data were processed

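Expected counts per gene were made by the authors with the aligner STAR 2.7.5c and the quantifier RSEM 1.3.1 against GRCm38, as listed in the submitters' processing notes; the deposited values are not normalized. RNA was polyA+ and libraries were made with a total RNA kit, per the labels' protocols. Annotation release, strand setting and use of molecular identifiers are not given in the sources used here, so overlapping, antisense and near-identical genes are uncertain.

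Expected counts were rounded, which moved a library total by at most 95.2. Coordinates come from GENCODE release M21, which held 98.7% of the identifiers. edgeR 4.0.16 (R 4.3.3, TMM, minimum count 10, robust quasi-likelihood test, group means only) was fitted to the 12 glioma libraries, to 11 without 3057E, and to all 24 for the difference between populations. The Benjamini-Hochberg adjustment ran over every tested gene, and adjusted p under 0.05 was called. Standard errors (SE) were taken from the fold change and its F statistic. CPM use TMM over 24 libraries. The labels do not say that the animals of a group were raised separately, so p-values measure the spread between these samples. The fits were tested on simulated data.

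No 2 libraries of a group were copies (chi-square per degree of freedom at least 19.8). Both libraries of a tumour code come from 1 brain, per the labels, so the codes pair the populations; the deviations of the 2 libraries from their group means correlated at 0.08 to 0.47 over 18810 genes in the 8 late and asymptomatic tumours.

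The comparison, 3057E as the tumour to leave out, and the 47 gene lists were chosen with earlier results of these data known, and lists carry no set test. Named genes are those called with 4 late tumours; with 3, the largest folds (up to 12 in each direction) among genes whose groups did not overlap and whose log2 CPM averaged 3 or more; the 3 members per list that had the lowest p; and, always, Cdkn2a, Gfap, Cx3cr1, Ptprc, Mki67, Myc, Olig2, Sox10, Pdgfra and Pdgfb. Predicted genes, pseudogenes, mitochondrial genes and Xist were left out, but stay in the counts. Some genes that meet the rule are not reported here. Lists hold 15 cell types and pathways of the cell cycle, signalling, stress, immunity and cell state. Alternatives were DESeq2 1.42.0, limma 3.58.1 voom, other scaling, filters, covariates, fold limits and library sets, and each tumour left out. RefSeq promoters were searched for ACGTG and GCGTG on both strands.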

Additional observations from a re-analysis of the deposited data

Results flagged for a closer look

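In each of 93 genes the gap of the most extreme library to its nearest neighbour was divided by the whole range of its group of 4, and set against Dixon's critical value of 0.829. Chance passes it in about 1 group in 20, but most of these genes were named from the fit without 3057E, so that rate does not apply to late glioma and the number through 3057E is partly set by the choice of genes. In late glioma 24 genes passed, 22 of them through 3057E. It was the highest library for Aldh1a1 (0.973), Clec7a (0.984), Csf1r (0.99), Cx3cr1 (0.987), Fcrls (0.983), Fstl5 (0.958), Gabra4 (0.976), Gpr158 (0.936), Gria1 (0.884), Ly86 (0.975), Mertk (0.956), Mpeg1 (0.989), Mycn (0.884), Nrp2 (0.876), Ptprc (0.982), Rph3a (0.961), Slc6a11 (0.95), Sntg1 (0.943) and St8sia3 (0.965), which include genes of microglia and of transmitter signalling. It was the lowest for Ankrd37 (0.925), Cox7a2 (0.896) and Rpl28 (0.93). The other late libraries were 3054B, highest for Axl (0.829), and 3054C, lowest for Pdgfra (0.857). In asymptomatic glioma 4 genes passed: Hoxa4 and Hoxa5 were highest in 3228A (1 each, with the other libraries at 0), Aqp4 was lowest in 3228B (0.912) and Gapdh lowest in 3228D (0.863).

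The stage effect in glioma minus that in surrounding cells passed the interaction test without 3057E (edgeR, adjusted p under 0.05) for 23 of these genes. On the log2 scale the difference was above 0 for Cdkn2a (1.9), Cmbl (2.52), Fam89a (2.4), Igf2bp2 (3.93), Jam3 (1.81), Npas2 (3.42), Olig2 (1.79), Sema3e (2.35), Sox10 (1.92), Sox4 (1.76), Syt4 (2.74), Tmem176a (1.54), Tmem176b (1.52) and Ulbp1 (2.03). It was below 0 for Clec7a (-4.91), Csf1r (-4.07), Cx3cr1 (-3.88), Fcrls (-4.1), Ly86 (-4.25), Mertk (-3.6), Mpeg1 (-4.98), Nrp2 (-3.44) and Ptprc (-4.3), which are mostly genes of microglia and macrophages. For Olig2 and Sox10 the glioma levels themselves did not pass, and surrounding levels were 30.3 to 374 and 65.7 to 386 CPM in late against 194 to 439 and 186 to 437 CPM in asymptomatic tumours. With 4 late tumours none of these differences passed (smallest adjusted p over all genes 0.312). With tumour code as a block that pairs both libraries of a tumour, 36 of the 93 genes passed without 3057E: all 23 above and 13 more, among them Foxf1 (adjusted p = 0.023, edgeR with the block), Rarb (adjusted p = 0.016), Skap2 (adjusted p = 0.0078), Gja1 (adjusted p = 0.024) and Pdgfra (adjusted p = 0.043).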

How the results depend on the processing

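The count with 4 late tumours (26) was 0 with only the late and asymptomatic libraries, with Xist as a covariate and without tumours 3108D and 3109D (added after seeing the data), and 10 without genes higher in surrounding cells. It was 45 with microglia markers as a covariate, 47 with all libraries of both populations, 110 with no count filter, 578 with DESeq2 and 2989 with limma voom. Leaving out 1 tumour gave 0 to 2487, the highest without 3057E; it was 0 without 3054C, 3228A, 3228D or 3229B, 4 without 3054B and 8 without 3054A. The count with 3 late tumours (2487) was 1475 with all libraries of both populations, 1506 at more than 2-fold and 36 with microglia markers as a covariate; leaving out 1 more tumour gave 1362 to 2434, with 1410 without 3054B, 1362 without 3054C and 1436 without 3228D. The cause was not tested. The difference between populations (0) was 18 with DESeq2, 0 to 1435 with 1 tumour left out (1435 without 3057E), 0 with tumour code as a replicate block, and 2800 with that block without 3057E (added after seeing the data). The pairing changed no other call of the counts. Of 447 alternative values for 23 named genes of the fit with 4 late tumours, 223 missed the threshold and 0 changed sign. Of 1309 alternative values for 70 genes of the fit with 3, 102 lost and 10 gained the call, and 9 changed sign: Fcrls (0.069), Clec7a (0.89) and Mpeg1 (0.012) with microglia markers as a covariate, and Pdgfb, not called, at -0.038 with limma voom, -0.20 with Xist and -1.24 with microglia markers as a covariate, and between -0.0818 and 0.40 with 1 tumour left out. Precision is limited by 4 or fewer tumours a group, and genes at a few reads per library in a group, such as Cnpy1, Igf2bp2 and Rasd2, by depth.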

Other observations

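Of 8 tested endothelial markers 2 rose and 0 fell with 3 late tumours, against background shares of 7.19% and 7.50%, and none of 7 was called with 4. With 3, 1 rose without any 1 of 3054B, 3054C, 3228A, 3228B or 3228D. These were Flt1, a receptor of Vegfa (3.24 on the log2 scale), and the glucose transporter Slc2a1 (1.98), which is also on the hypoxia list. Pecam1 (-1.36) and Cdh5 (-1.15), which define endothelium, did not pass. Fibroblast and meningeal markers summed to 7.83 to 17.7 CPM in late and 4.06 to 17.3 CPM in asymptomatic glioma. No gene of cholesterol synthesis was called in either fit (21 tested).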
